A study of Rattus norvegicus with 30 samples.

Results

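Gene expression in the brains of amylin knockout (AKO) rats was compared with that of wild type (WT) rats. The question was how cortical RNA differs between knockout animals and animals that make rat amylin. The comparison used 20 of the 30 rats of the study, 10 AKO and 10 WT, chosen by the genotype in their labels, and 17058 of 17134 genes, those with a mean of at least 1 normalized read count in these 20 rats. Amylin is a peptide hormone that pancreatic β-cells release together with insulin. It slows gastric emptying, lowers glucagon release and acts on the brainstem to end meals, through calcitonin receptors joined to receptor activity-modifying proteins. Rat amylin, unlike human amylin, does not aggregate into amyloid.

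All 20 animals were males on a normal diet, and the tissue in their labels is the frontal cortex, while the study's own text speaks of cerebral cortex in one place and of hippocampal tissue in another. WT rats make rat amylin from their own gene and, by the study's methods, were 15 to 16 months old. AKO rats are knockouts of that gene and carry no human amylin. How the allele was made, the strain and the age of the sequenced AKO rats are not given in the sources used here. The third group, 10 HIP rats, makes human amylin in the pancreas and develops type 2 diabetes, and it enters only where stated. All WT and HIP rats carry numbers with RT, while the AKO rats carry numbers with KAH (4 rats) or AKO (6 rats), so number series and genotype cannot be told apart. The amylin gene, Iapp, was not analysed here, so the genotype was not checked on its own transcript.

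Whole reads estimated from the smallest steps of the values came to 12.9 to 23.6 M per AKO rat and 12.9 to 21.2 M per WT rat (M, the SI prefix mega). The group means, 17.0 ± 3.41 M (SD, n = 10) and 18.5 ± 2.60 M (SD, n = 10), did not differ beyond their spread (two-sided permutation test, p = 0.264). One WT library, rat 10RT43, stood apart. Its normalized count of Gabra6, a GABA-A receptor subunit of cerebellar granule cells, was 17979. The remaining WT rats held 2.96 to 14.6, and AKO rats 1.12 to 16.5. Its mean log2 level of 20 tested cerebellar genes was 12.3, while no other WT rat exceeded 6.11, and its median correlation with the other rats over genes was 0.885, where most rats reached 0.968 to 0.98. Markers of excitatory cortical neurons, of which 1 of 17 (Emx1) was at 0 in any rat, had mean log2 levels of 10.9988 to 11.57 in AKO rats and 11.1 to 11.7 in WT rats apart from 10RT43 (9.01). Every comparison was therefore also made without 10RT43. 4KAH27 and 6KAH98, both AKO, had the next lowest correlations, 0.955 and 0.952.

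With all rats weighted equally, few genes separated the genotypes. With limma on log2(normalized count + 1) and Benjamini-Hochberg adjustment over all 17058 genes, 9 genes (0.0528%) rose and 8 genes (0.0469%) fell in AKO rats at an adjusted p under 0.05. Without 10RT43, 12 genes (0.0705%) rose and 9 genes (0.0529%) fell among 17025. The genes that rose included Igfbp6, Col6a1, Ftcd, Fcgr2b, Muc1, RT1-DMa and Cd22, and those that fell included Akr1b10 and the protocadherins Pcdhb5, Pcdhb6 and Pcdhb9. At an unadjusted p under 0.05, called nominal from here on, 892 genes (5.23%) were higher and 702 genes (4.12%) lower. Without 10RT43, these were 946 genes (5.56%) higher and 800 genes (4.7%) lower. The share of a gene class was read against these percentages. The median log2 difference over all genes was 0.00.

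The number of called genes depended on which rats were used and on their weights. Sample-quality weights gave 492 genes higher and 365 lower. Leaving out 1 rat at a time gave 4 to 28 genes higher and 6 to 15 lower, with 24 and 15 without 4KAH27, 28 and 10 without 6KAH99, 16 and 8 without 7AKO30, and 4 and 6 without 7AKO19 or the WT rat 10RT38. Leaving out 6AKO52, 10RT45 or 10RT47 gave 5 and 6. Akr1b10, Igfbp6, Pcdhb5, Col6a1, AC130970.1 and 5 unnamed genes were called in all 20 of these. The other 7 called genes were called in 5 to 12 of them. Over these 20 fits, the nominal counts of all genes ran from 769 to 1100 higher and from 542 to 882 lower. The 6 AKO rats with AKO in their number gave 44 higher and 24 lower genes against the WT rats, and 743 and 526 nominal ones. The 4 with KAH in their number gave 0 and 0, with a smallest adjusted p of 0.0841 and 900 and 893 nominal genes. The sets differ in size, so their counts are not directly comparable. All 17 genes called by the comparison had the same sign in both sets of AKO rats. They were selected on these same rats, so this sign agreement is no separate evidence. Between these sets, limma called 1 of 17030 genes (0.00587%). It was the unnamed ENSRNOG00000064950, at normalized counts of 3293 to 4644 in the KAH-numbered rats and 415 to 621 in the AKO-numbered rats, while WT rats ranged from 1969 to 4154.

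**Figure D1:**
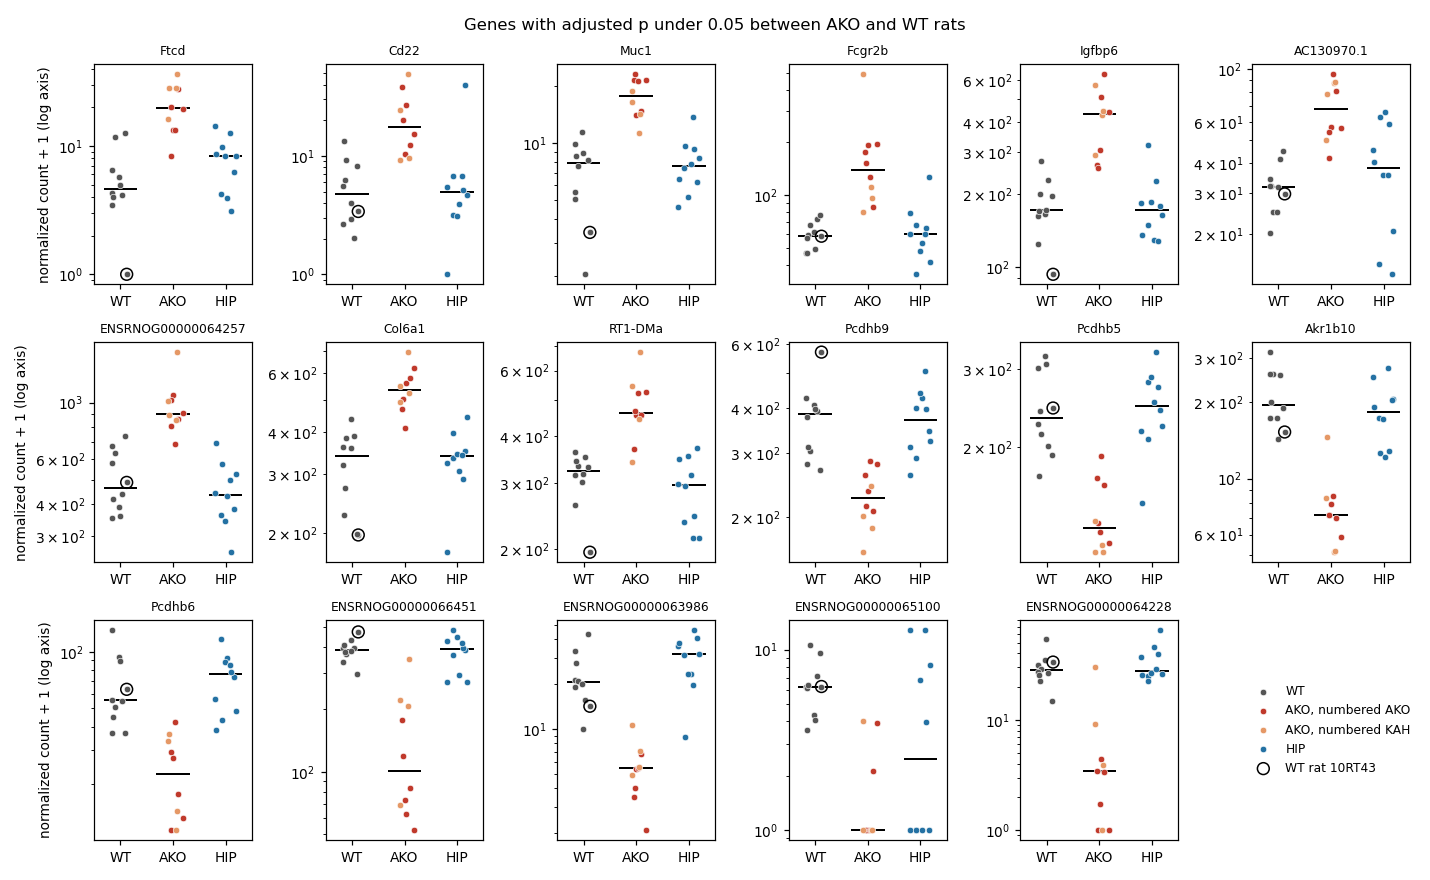
Normalized read count + 1 (log axis) of the 17 genes called in AKO against WT rats, 1 panel per gene and 1 point per rat, with bars at group medians. WT rats, AKO rats by number series and HIP rats are drawn side by side, and the WT rat 10RT43 is circled. The AKO points of Fcgr2b all lie above the WT points, and those of Akr1b10 lie below them except for 1 rat.

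The gene with the smallest p fell. Akr1b10 encodes an aldo-keto reductase that reduces aldehydes and retinal, a relative of the aldose reductase of the polyol pathway. Its normalized count was 50.1 at the lowest, 70.6 at the median and 145.2 at the highest in AKO rats, against 142.2, 194 and 316 in WT rats. Of the 10 AKO rats, 9 lay below every WT rat, and the exception, 6KAH99, was at the bottom of the WT range. The log2 difference was -1.49 ± 0.18 (SE; limma adjusted p = 0.000679) and -1.53 without 10RT43. HIP rats held 121, 182 and 274, and the AKO rats were lower than these too, by a log2 difference of -1.28 (adjusted p = 0.00232). The aldose reductase gene itself, Akr1b1, a near neighbour in the gene order, had a log2 difference of -0.13 ± 0.11 (p = 0.234). Of the 12 tested genes of the polyol pathway and the aldo-keto reductases, 1 fell, and Akr1c19 was nominally higher, at 0.89 ± 0.32 (p = 0.0104). Reads of near-identical reductase genes may have been divided between them, so the level of a single member is uncertain.

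Igfbp6, a secreted protein that binds insulin-like growth factor 2 with preference and is made by meningeal and other fibroblasts, was the named gene with the smallest p among those that rose. AKO rats ranged from 257 through a median of 433 to 632, and WT rats from 92.1 through 171 to 275. All but 2 AKO rats lay above the highest WT rat, and the log2 difference was 1.20 ± 0.19 (adjusted p = 0.00795). HIP rats had a median of 171, and the difference of AKO from HIP rats was 1.19 (adjusted p = 0.00508). It was the only one of 12 tested genes of the insulin-like growth factor system to pass even the unadjusted threshold.

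Col6a1, the alpha 1 chain of type VI collagen, which links basement membranes to the surrounding matrix, ranged from 411 through 534 to 692 in AKO rats and from 196 through 338 to 435 in WT rats. Of the 10 AKO rats, 9 lay above the WT range, and the log2 difference was 0.82 ± 0.14 (adjusted p = 0.0209). Its partner chain Col6a2, the next tested gene in the gene order, was nominally higher, with 230, 264 and 410 against 144.96, 207 and 242 and a log2 difference of 0.46 ± 0.11 (p = 0.000573). The next tested gene after these is Ftcd, an enzyme of histidine breakdown that passes a carbon group to folate. Ftcd rose from 0, 3.61 and 11.7 in WT rats to 7.42, 18.8 and 35.2 in AKO rats, with a log2 difference of 2.01 ± 0.37 (adjusted p = 0.033) that came to 1.76 without 10RT43, the WT rat at 0. Thus 3 neighbouring genes differed in the same direction. Pcbp3, before them, and Spatc1l, after them, were not nominally different, with log2 differences of -0.19 (p = 0.568) and -0.35 (p = 0.288). Lss, the next tested gene after Spatc1l, was nominally higher at 0.33 (p = 0.0119). Adarb1, 5 places before Col6a1, was nominally lower at -0.28 (p = 0.0229). None of the other one-carbon and folate enzymes was nominally higher, and Mtrr was nominally lower at -0.28 (p = 0.042), out of 19 tested.

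Across 40 tested collagen genes, 6 were nominally higher and none lower, with a median log2 difference of 0.26, and without 10RT43 these counts were 9 and 1. Besides both type VI chains they were Col4a2, Col5a3, Col8a2 and Col16a1. In the list of meningeal fibroblast and matrix genes, 3 of 31 were nominally higher and none lower (median 0.25), and all 3 were collagens. Without 10RT43 6 were higher, and without 4KAH27, 7AKO30, 10RT50 or 10RT51 the count was 5 to 8. Muc1, a membrane mucin of epithelial cells, rose from 1.04, 6.91 and 10.5 to 10.3, 16.7 and 22.2, with a log2 difference of 1.45 ± 0.27 (adjusted p = 0.0346), at levels near the low end of what was counted. The ranges of Muc1 met only at their edges, with 9 AKO rats above the highest WT rat.

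The clustered protocadherins are cell surface adhesion proteins, each gene with a single large exon in the beta group, of which single neurons express different combinations that tell their own branches from those of other cells. Of 14 tested, 3 fell and no other member passed the unadjusted threshold. Pcdhb5 fell from 172, 232 and 319 in WT rats to 115, 131.1 and 190 in AKO rats, by a log2 difference of -0.78 ± 0.13 (adjusted p = 0.00795). Pcdhb9 fell from 269, 383 and 568 to 159.1, 224 and 285, by -0.70 ± 0.13 (adjusted p = 0.0346). Pcdhb6 fell from 36.1, 54.2 and 129 to 10.3, 21.4 and 41.6, by -1.52 ± 0.29 (adjusted p = 0.036). For each, 8 or 9 of the 10 AKO rats lay below every WT rat. HIP rats held medians of 246, 370 and 74.8 for Pcdhb5, Pcdhb9 and Pcdhb6, and AKO rats were lower than HIP rats by -0.80, -0.70 and -1.68 (adjusted p = 0.00653, 0.0117 and 0.00728).

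The genes that fell were not all next to each other along the cluster. Pcdhb5 and Pcdhb6 are adjacent, but between Pcdhb6 and Pcdhb9 lie Pcdhb7 and Pcdhb8. Neither was nominally different, with log2 differences of 0.13 and 0.45 (p = 0.48 and 0.0714). Pcdhb8 had counts of 60.7, 178 and 255 in AKO rats and 65, 120 and 152.2 in WT rats. Pcdhb2 lay at -0.62 ± 0.35 (p = 0.0922). These genes are close in sequence, and reads shared between them may have been assigned to a neighbour, so the members' levels are uncertain one by one. Of 23 tested cadherins outside the cluster, 3 were nominally lower (Cdh18, Cdh20 and Cdh7) and none higher.

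**Figure D2:**
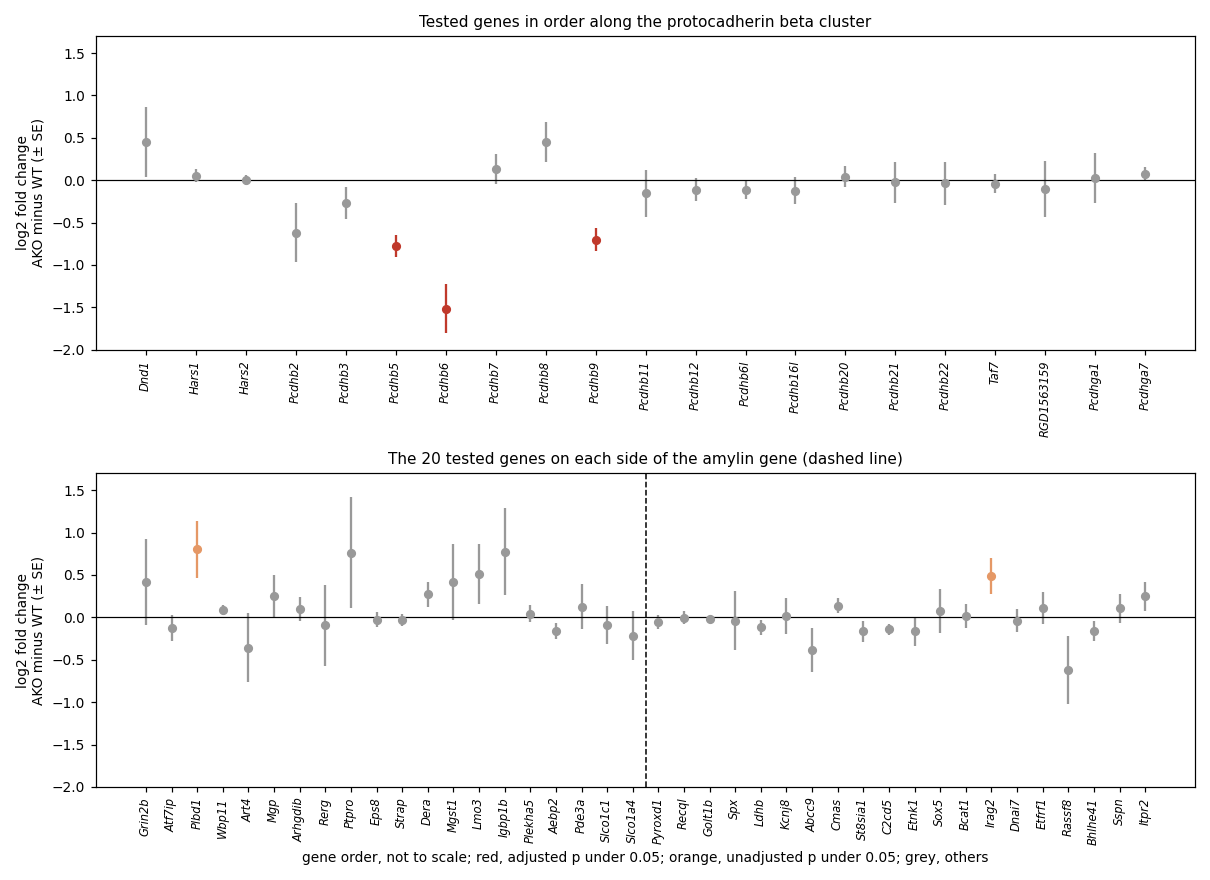
Log2 difference (AKO minus WT, with SE) of tested genes by their rank in the gene order, for the protocadherin beta cluster and for 20 tested genes on each side of the amylin gene. Pcdhb5, Pcdhb6 and Pcdhb9 lie below 0, as does their neighbour Pcdhb2 at -0.62, while Pcdhb7 and Pcdhb8 lie above it, and genes beside amylin stay between -0.62 and 0.80.

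Genes of major histocompatibility complex (MHC) class II presentation had the highest share of higher members among the gene lists. Class II molecules, named RT1 in the rat, present peptides from taken-up proteins to helper T cells, and in the brain they are made by activated microglia and by macrophages of the borders. Of 12 tested genes of the pathway, 9 were nominally higher in AKO rats and none lower, all 12 had a positive difference, and the median was 0.85, against 5.23% of all genes nominally higher. Without 10RT43 the count was again 9, with a median of 0.95. RT1-DMa was the member that passed the adjusted threshold.

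RT1-DMa and RT1-DMb encode the 2 chains of the chaperone that loads peptides onto class II molecules. RT1-DMa had 340, 461 and 672 normalized counts in AKO rats and 195, 323 and 363 in WT rats, a log2 difference of 0.62 ± 0.12 (adjusted p = 0.0438), and against HIP rats, at 212, 295 and 372, one of 0.73 (adjusted p = 0.00953). RT1-DMb had 226, 292 and 394 against 140, 195 and 276, a log2 difference of 0.60 ± 0.12 (p = 8.76e-05, adjusted p = 0.0623). All but 1 AKO rat for RT1-DMa, and all but 2 for RT1-DMb, lay above the WT range. Both chains differed to a similar degree in AKO-numbered and KAH-numbered rats, at 0.59 and 0.66 for RT1-DMa and 0.63 and 0.56 for RT1-DMb.

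The peptide-presenting chains and the invariant chain had wider ranges in AKO rats. RT1-Db1, a DR-type beta chain, had 39.8, 114 and 317 in AKO rats against 24.7, 42.6 and 76 in WT rats (1.37 ± 0.32, p = 0.000366). Cd74, the invariant chain that escorts class II molecules through the cell, had 214, 918 and 2294 against 214, 323 and 764 (1.14 ± 0.34, p = 0.00298). RT1-Bb, a DQ-type beta chain, had 8.23, 114 and 505 against 11.6, 36.8 and 59.1 (1.56 ± 0.52, p = 0.00682). In each, 6 or 7 AKO rats exceeded every WT rat while the lowest AKO rat lay below the WT range for RT1-Bb, at its bottom for Cd74 and below the WT median for RT1-Db1. That lowest rat was 4KAH27 each time, and the other AKO rats started at 70.2 for RT1-Db1, 454 for Cd74 and 47.4 for RT1-Bb. RT1-Da (37, 225 and 621 against 61.3, 85.5 and 172) was nominally higher at 1.0 ± 0.36 (p = 0.0118), and RT1-Ba (8.23, 165 and 539 against 29.3, 68.7 and 163) was not, at 0.84 ± 0.50 (p = 0.109). Ciita, the coactivator that switches class II genes on, had 3.9, 10.1 and 16.9 against 0.82, 4.83 and 9.93 (0.86 ± 0.31, p = 0.0118).

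For these chains the AKO-numbered rats had the larger differences. Their log2 differences from WT rats were 1.93 for RT1-Db1, 1.68 for Cd74, 2.36 for RT1-Bb, 1.55 for RT1-Da and 1.66 for RT1-Ba. In the KAH-numbered rats the same values were 0.53, 0.34, 0.36, 0.17 and -0.38, and 4KAH27 lowered them. Cd74 was at 214 in 4KAH27 and at 454 to 792 in the other KAH-numbered rats, against 551 to 2294 in the AKO-numbered rats. RT1-Ba was at 8.23 in 4KAH27, at 79.0 to 126 in the other KAH-numbered rats and at 102 to 539 in the AKO-numbered rats. With 4KAH27 left out, the log2 differences of all AKO from WT rats were 1.54 for RT1-Db1, 1.36 for Cd74, 1.93 for RT1-Bb, 1.26 for RT1-Da and 1.26 for RT1-Ba. Over all genes, 743 were nominally higher in the AKO-numbered and 900 in the KAH-numbered rats. Over the pathway, 11 of 12 genes were nominally higher in the first set and 3 in the second, with medians of 1.31 and 0.46. This contrast was not called for any of these genes in the direct comparison of both sets. HIP rats ranged widely as well, with Cd74 from 127 through 255 to 8776, and the difference of AKO from HIP rats in Cd74 did not pass (1.08, adjusted p = 0.434).

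Class II genes share a short promoter module whose Y box carries the letters TGATTGG. The 250 bases before the start of 5 of them are shown, with those letters in capitals. All of these but RT1-Ba were nominally higher in AKO rats. They were taken from RefSeq for the reference rat genome GRCr8, another build and another animal than the rats measured here.
RT1-DMa, chr20:4712336-4712585, minus strand: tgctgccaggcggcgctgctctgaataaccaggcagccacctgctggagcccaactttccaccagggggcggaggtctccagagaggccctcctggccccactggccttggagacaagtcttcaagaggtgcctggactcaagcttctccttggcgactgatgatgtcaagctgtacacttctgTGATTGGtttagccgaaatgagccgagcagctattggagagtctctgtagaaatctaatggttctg
RT1-Db1, chr20:4560163-4560412, minus strand: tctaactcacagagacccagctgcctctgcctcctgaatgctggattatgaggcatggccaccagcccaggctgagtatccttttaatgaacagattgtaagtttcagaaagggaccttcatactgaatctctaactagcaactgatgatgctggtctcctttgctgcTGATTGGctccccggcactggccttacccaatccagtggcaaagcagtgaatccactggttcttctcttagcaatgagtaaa
RT1-Da, chr20:4515165-4515414, plus strand: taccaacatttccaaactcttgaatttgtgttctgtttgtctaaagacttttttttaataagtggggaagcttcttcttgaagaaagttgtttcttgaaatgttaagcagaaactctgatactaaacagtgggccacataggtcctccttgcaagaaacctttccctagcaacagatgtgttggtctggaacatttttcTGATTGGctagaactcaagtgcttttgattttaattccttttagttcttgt
RT1-Bb, chr20:4604119-4604368, minus strand: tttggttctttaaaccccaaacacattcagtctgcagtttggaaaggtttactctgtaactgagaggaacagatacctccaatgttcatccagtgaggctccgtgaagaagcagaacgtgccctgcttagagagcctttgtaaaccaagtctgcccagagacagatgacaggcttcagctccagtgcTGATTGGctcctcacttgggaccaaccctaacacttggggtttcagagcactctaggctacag
RT1-Ba, chr20:4576807-4577056, plus strand: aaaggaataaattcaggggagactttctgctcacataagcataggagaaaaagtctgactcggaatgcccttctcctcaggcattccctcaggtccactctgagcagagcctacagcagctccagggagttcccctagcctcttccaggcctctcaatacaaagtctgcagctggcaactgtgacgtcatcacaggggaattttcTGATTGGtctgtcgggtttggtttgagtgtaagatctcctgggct
The letters begin 66, 82, 51, 63 and 45 bases before the start in RT1-DMa, RT1-Db1, RT1-Da, RT1-Bb and RT1-Ba, on the strand of the gene in each. Searched on both strands, TGATTGG was found in 8 of the 8 RT1 class II genes with a promoter in the table, of 9 tested, and in 6.42% of 33469 promoters. Of the other 3 tested members of the class II list, 2 had a promoter in the table, and 0 of these held the letters. The rats' own promoters were not sequenced, and the match says nothing about binding.

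Microglia are the resident macrophages of the brain, and their genes differed unevenly. Of 21 tested microglia markers, 12 were nominally higher in AKO rats and none lower, with a median log2 difference of 0.33. Without 10RT43, whose mean level of these markers (7.40, log2 scale) was the lowest of all WT rats (7.90 to 8.42), the counts were 12 and 1 and the median 0.25. No marker of the list was at 0 in any rat, and the AKO means ran from 7.88 to 8.70. In bulk tissue, a different number of cells and a different amount of RNA per cell cannot be told apart, which holds for every cell type list here.

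The higher markers included genes of phagocytosis and complement. Itgam, the CD11b chain of complement receptor 3, had 182, 271 and 471 in AKO rats against 95.7, 158.8 and 232 in WT rats (0.87 ± 0.18, p = 8.45e-05, adjusted p = 0.0623). Cd68, a lysosomal protein of phagocytes, had 32.2, 69.9 and 85.4 against 29.3, 37.1 and 43.9 (0.77 ± 0.16, p = 0.000115), and 9 of 10 AKO rats lay above the WT range. Ctss, the lysosomal protease cathepsin S that trims the invariant chain, had 3113, 4531 and 5267 against 1767, 3044 and 3532 (0.55 ± 0.12, p = 0.0002). Spi1 and Irf8, transcription factors of the myeloid lineage, were nominally higher at 0.56 (p = 0.0025) and 0.53 (p = 0.0029). Markers linked to the resting state were mixed. Csf1r was nominally higher (0.31 ± 0.13, p = 0.0284). Tmem119 had 96, 253 and 548 against 164, 404 and 512 (-0.48 ± 0.24, p = 0.0624), and it was nominally lower without 10RT43 (-0.61, p = 0.0111). Cx3cr1, the fractalkine receptor, stood at 0.28 ± 0.21 (p = 0.199), with 6 AKO rats above the WT range and 4KAH27 below it.

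All 3 chains of complement C1q, the recognition molecule of the classical pathway that also tags synapses, were nominally higher. C1qa had 1077, 1592 and 1810 in AKO rats against 647, 1094 and 1219 in WT rats (0.56 ± 0.12, p = 0.000162). C1qc had 479, 784 and 1104 against 275, 474 and 661 (0.68 ± 0.16, p = 0.00025), and C1qb differed by 0.67 ± 0.15 (p = 0.000275). In each of the 3, 8 of 10 AKO rats lay above the WT range. C4a, which follows C1q in the cascade, was nominally higher at 0.61 ± 0.21 (p = 0.00865). C3, the central component, had 195, 877 and 1400 against 240, 414 and 602 (0.74 ± 0.34, p = 0.0388), with 1.45 in AKO-numbered and -0.32 in KAH-numbered rats. Over 21 tested complement genes 9 were nominally higher and C6, of the membrane attack complex, was nominally lower at -0.88 (p = 0.012), with a median of 0.37.

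Fc gamma receptors bind IgG antibodies. Fcgr2b, the inhibitory one, was the only named gene called by adjusted p whose AKO rats all lay above all WT rats, with 78.9, 139.02 and 488 against 45.7, 57.9 and 76.5. Its log2 difference was 1.32 ± 0.25 (adjusted p = 0.033), and 1.29 against HIP rats (adjusted p = 0.0506), which ranged from 34.4 through 59.4 to 126. The value of 488 belonged to 4KAH27, the other AKO rats reaching 195. Over all tested genes, such a complete separation upward occurred for 2 genes (0.0117%), the other being Fcho1, an adaptor of endocytosis (0.39 ± 0.10, adjusted p = 0.144), and for 0 genes (0%) downward.

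The activating receptors Fcgr2a and Fcgr3a, next to Fcgr2b in the gene order, were nominally higher at 0.58 ± 0.17 (p = 0.0027) and 0.64 ± 0.23 (p = 0.0111). So were the signalling adaptors of the list, Tyrobp (0.47 ± 0.14, p = 0.00309) and Fcer1g (0.35, p = 0.013). In all, 6 of 11 tested Fc gamma receptors and adaptors were nominally higher and none lower, with a median of 0.53, or 0.35 without 10RT43. The receptors are alike in sequence, so their separate levels are uncertain. Cd22, an inhibitory receptor for sialic acid known from B cells and also made by microglia, rose from 1.04, 3.77 and 12.3 to 8.23, 16.7 and 47.9 (1.91 ± 0.38, adjusted p = 0.0467), and without 10RT43 its adjusted p was 0.0572. Markers of border macrophages gave 2 of 8 nominally higher, Folr2 (0.57 ± 0.15, p = 0.00101) and Cd163 (0.51 ± 0.19, p = 0.0135). With the microglia mean of each rat as a covariate, 1 gene rose and 2 fell by adjusted p over the whole table. In that fit 4 of 12 class II genes were nominally higher, beside 576 of all 17058 genes. Ctss belongs to both the microglia and the class II list.

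**Figure D3:**
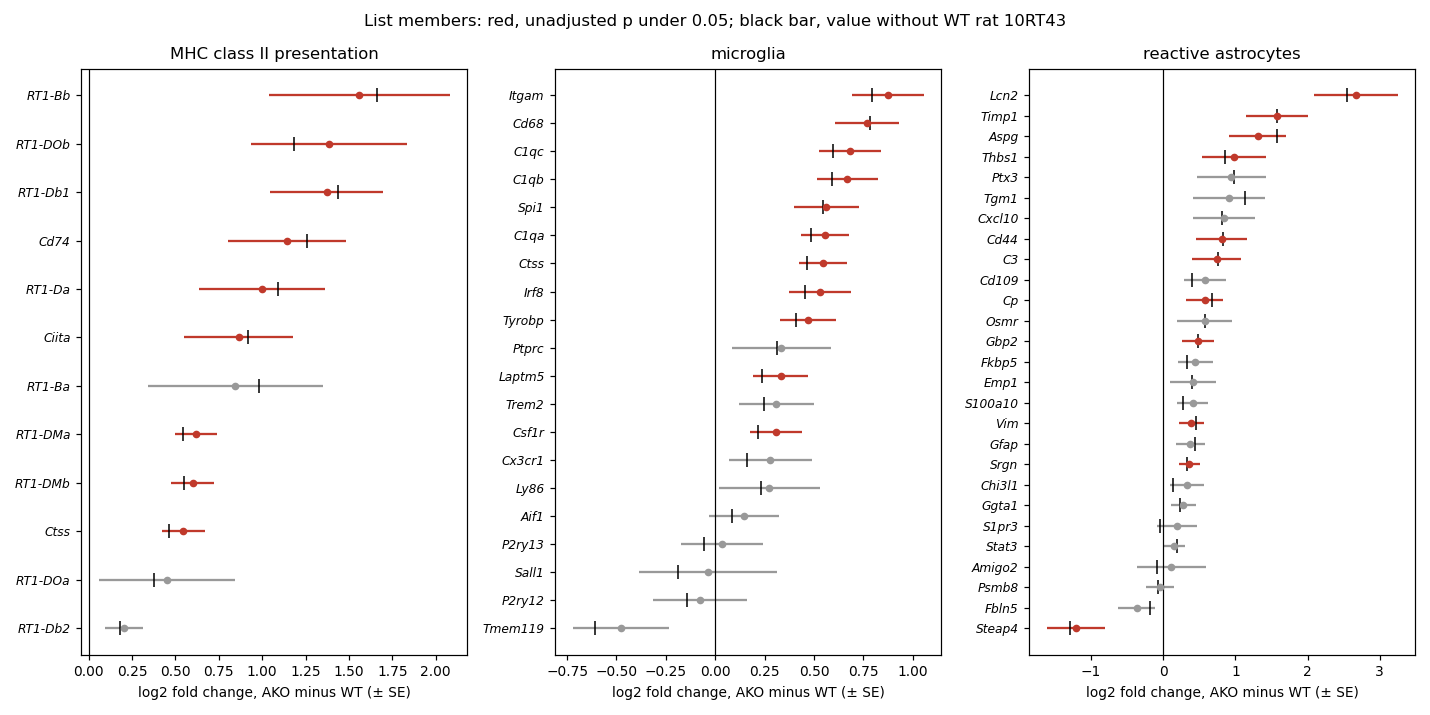
Log2 difference (AKO minus WT, points with SE) of tested members of the MHC class II, microglia and reactive astrocyte lists, all but 1 microglia member, with black bars at the value without the WT rat 10RT43. All class II members lie right of 0, microglia members lie on both sides, and Lcn2 has the largest difference of the astrocyte list at 2.66.

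Interferon and cytokine lists had lower shares of nominally higher members. Of 37 tested interferon-stimulated genes 5 were nominally higher (Mx1, Ifi47, Ifi27, Gbp2 and Oas1a) and none lower, and with 1 rat left out the count was 0 to 6, with 1 higher without 10RT43 and 0 without 10RT45. Of 20 genes of class I presentation 3 were nominally higher (RT1-S3, Tapbp and Tap1), and of 33 genes of the interleukin 1 pathway and inflammasome 3 were (Nlrc4, Gsdmd and Il1b). Without 10RT43 the class I count was 2 and the interleukin 1 count 5, and without 7AKO30 the latter was 6. Over all genes, 1100 were nominally higher without 7AKO30. The interleukin 1 count was 7 in the KAH-numbered rats, beside 900 of all genes, and 1 in the AKO-numbered rats, beside 743. Among 31 chemokines and their receptors 6 were nominally higher, including the neutrophil receptors Cxcr1 and Cxcr2, and none lower. Of the 26 tested RT1 genes of both classes, 7 were nominally higher and none lower.

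Markers of blood cells varied between rats. S100a8 and S100a9, the calprotectin chains of neutrophils, had medians of 8.12 and 9.74 in AKO rats against 2.66 and 4.87 in WT rats (1.78 ± 0.52, p = 0.00263, and 1.81 ± 0.60, p = 0.00635). Their highest values, 130 and 197, were in AKO rats. Of 12 tested lymphocyte and blood cell markers 4 were nominally higher, the others being Ighm and Hba-a3, and none lower, and 4 of the 12 (Cd8a, Cd79a, S100a9 and Ngp) were at 0 in some rat. The mean log2 level of the list ran from 4.29 to 6.93 in AKO and from 4.06 to 4.71 in WT rats, highest in 4KAH35 (6.93) and 4KAH27 (5.90). Their summed normalized counts were 59326 and 23654, against 4338 to 15552 in the other AKO rats and 4941 to 14890 in WT rats. S100a8 was at 130 in 4KAH27 and 47.9 in 4KAH35, and at 11.1 or less in the other AKO rats. In the KAH-numbered rats 9 members were nominally higher and in the AKO-numbered rats 2, and 2 were without 4KAH35. Over all genes, 900 were nominally higher in the KAH-numbered rats, 743 in the AKO-numbered rats and 808 without 4KAH35. The part of blood in the immune results above was not tested.

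Reactive astrocyte genes, which astrocytes raise after injury and inflammation, gave 10 nominally higher and 1 lower of 27 tested, with a median of 0.44, and 11 and 1 without 10RT43. Lcn2, an iron-carrier-binding protein secreted in acute inflammation, had 13.6, 23.4 and 281 in AKO rats against 0, 6.1 and 15.2 in WT rats, and 9 of 10 AKO rats exceeded every WT rat (2.66 ± 0.58, p = 0.000159, adjusted p = 0.079). Against HIP rats, at 1.04, 5.1 and 8.13, its difference was 2.56 (adjusted p = 0.00874). Timp1, an inhibitor of matrix metalloproteinases, had 42, 79.5 and 885 against 13.5, 27.2 and 68.2 (1.58 ± 0.43, p = 0.00141). The highest value of both was that of 4KAH27, and the other AKO rats reached 45.8 for Lcn2 and 129 for Timp1. Aspg (1.31 ± 0.40), Cd44 (0.81 ± 0.35) and the intermediate filament Vim (0.39 ± 0.17) were nominally higher too (p = 0.00331, 0.0306 and 0.0377).

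Gfap, the filament by which astrocyte reactivity is usually judged, had 5456, 12037 and 14084 in AKO rats and 5482, 7286 and 14702 in WT rats, and its difference of 0.38 ± 0.20 (p = 0.0705) was nominal only without 10RT43 (0.44, p = 0.0352). Steap4, an iron and copper reductase, was nominally lower, at 4.09, 13.3 and 71.3 against 20.3, 39.4 and 47.5 (-1.21 ± 0.40, p = 0.00664), by -1.97 in AKO-numbered and -0.08 in KAH-numbered rats. Over all genes, 900 were nominally higher in the KAH-numbered and 743 in the AKO-numbered rats, and in this list 14 and 5. The difference between these sets was not tested for the list. Its mean log2 level was 8.30 in 4KAH27, 7.30 in 4KAH35 and 6.79 and 6.82 in the other KAH-numbered rats, against 6.45 to 7.14 in the AKO-numbered rats. Leaving out 1 rat gave 5 to 13 higher members, 5 without 4KAH35 or 10RT47 and 6 without 10RT44 or 10RT55. Over all genes, the nominally higher count then ran from 769 to 1100. Among 18 markers of astrocytes in general 1, Mlc1, was nominally higher (0.20 ± 0.07, p = 0.00928).

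**Figure D4:**
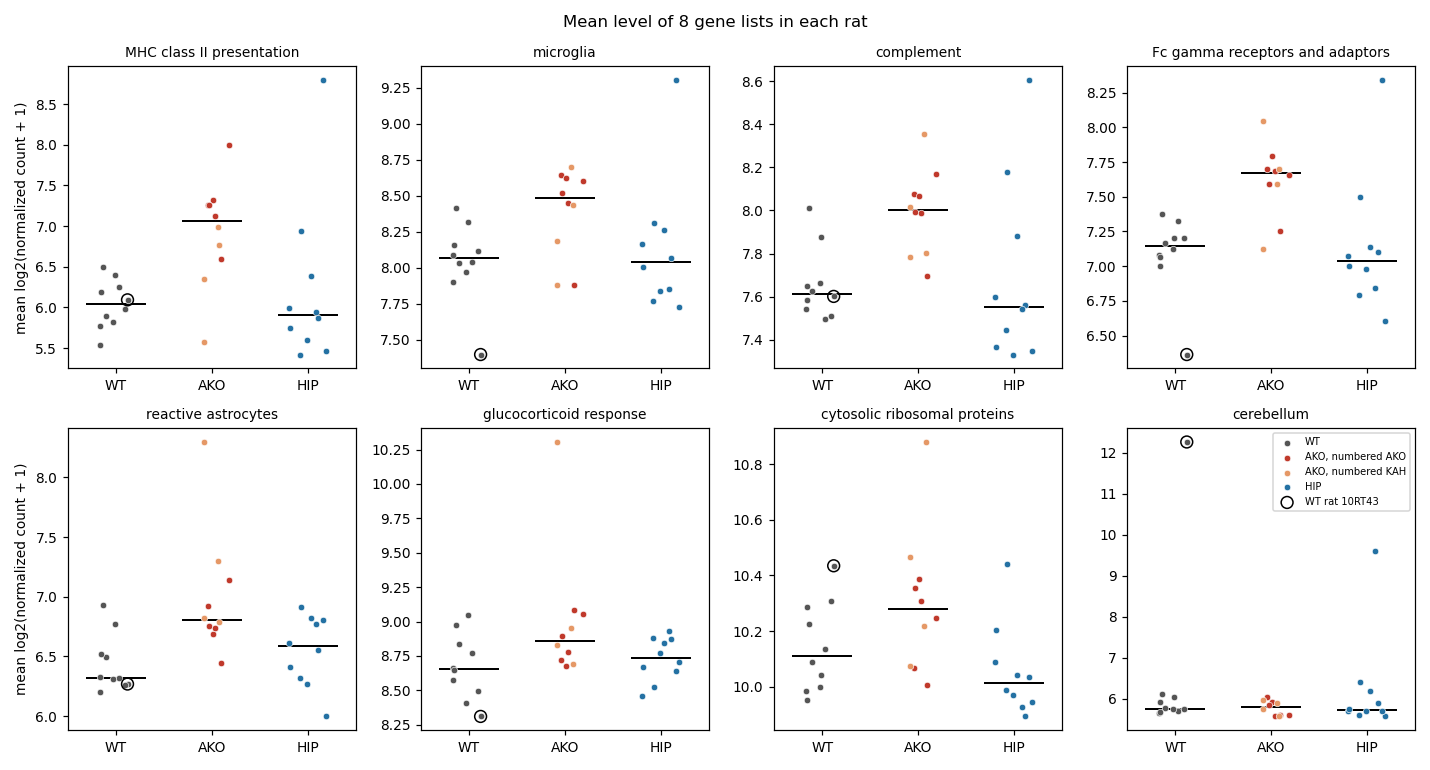
Mean log2(normalized count + 1) over the members of 8 gene lists in every rat, with WT rats, AKO rats by number series and HIP rats side by side and the WT rat 10RT43 circled. The cerebellar list shows 10RT43 far above the other WT rats at 12.3, and the reactive astrocyte list shows 4KAH27 above the other AKO rats at 8.30.

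Genes that respond to glucocorticoids gave 5 nominally higher and 2 lower of 19 tested. Sult1a1, a sulfotransferase for phenols and drugs, had 237, 306 and 420 in AKO rats against 131.7, 164 and 313 in WT rats (0.75 ± 0.15, adjusted p = 0.0506), and it passed the adjusted threshold without 10RT43 (0.78, adjusted p = 0.0405). Plin4, a lipid droplet protein, stood at 0.89 ± 0.27 (p = 0.00289), and the metallothionein Mt1, which binds zinc and copper, at 1.16 ± 0.41 (p = 0.00988). Mt1 had 73.4, 86.1 and 883 against 15.1, 48.7 and 116, and 883 was again 4KAH27, with the other AKO rats up to 151.2. The receptors themselves were nominally lower, Nr3c1 at -0.32 ± 0.12 (736, 1271 and 1563 against 1208, 1540 and 1924, p = 0.0116) and Nr3c2 at -0.19 (p = 0.045). The mean log2 level of the list was 10.3 in 4KAH27 and 8.68 to 9.08 in the other AKO rats, against 8.31 to 9.05 in WT rats. Of 24 antioxidant and metal response genes 3 were nominally higher (Mt1, Mt2A and Cp), and of 30 cytochrome P450 and drug metabolism genes 5 were (Sult1a1, Gstm3, Gsta4, Cyp2s1 and Gstm2). The glutathione transferases as a family gave 5 of 18 nominally higher and none lower.

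Among genes that run the basic machinery of the cell, cytosolic ribosomal proteins gave 8 nominally higher of 67 tested and none lower, with a median of 0.14, and 14 without 10RT43. Over all genes, 861 were nominally higher without 6KAH98, 802 without 10RT45, 909 without 6KAH99, 1028 without 6AKO35 and 1100 without 7AKO30. The ribosomal count was 5 without 6KAH98 or 10RT45, 14 without 6KAH99 and 16 without 6AKO35 or 7AKO30. Rps28 (2.67, 12.2 and 22.9 against 0.974, 4.02 and 5.33) had the smallest p at 1.41 ± 0.30 (p = 0.000131), followed by Rps2 (0.49 ± 0.13, p = 0.00105) and Rpl13 (0.42 ± 0.12, p = 0.002). Ribosomal protein genes have many near-identical processed copies, so single members are uncertain. Mitochondrial ribosomal proteins gave 1 of 70. The proteasome gave 0 of 31, the endoplasmic reticulum chaperones 1 of 26 (P4hb) and the heat shock chaperones 1 higher, Hspb8 at 0.47 ± 0.12 (p = 0.001), and 1 lower, Hspa8 at -0.21 (p = 0.0078), of 22. The lysosome gave 5 of 34 nominally higher (Ctss, Npc2, Grn and Ctsz among them) and none lower.

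Energy metabolism gave few nominal members. Of 35 nuclear genes of the respiratory chain none was nominally higher and 2 were lower, Ndufs1 at -0.13 ± 0.06 (p = 0.04) and Sdha at -0.12 (p = 0.046). Mitochondrially encoded genes gave 1 of 13 (Mt-co2, 0.21 ± 0.10), glycolysis 3 higher and 1 lower of 21 with the lactate exporter Slc16a3 at 0.70 ± 0.21 (p = 0.00368), and the hypoxia response 3 of 22. Cholesterol synthesis gave 1 higher (Lss) and 3 lower (Stard4, Tm7sf2 and Sc5d) of 22. Without 10RT43 glycolysis gave 1 higher and 0 lower, the hypoxia response 2 higher and 1 lower, and cholesterol synthesis again 1 and 3. The respiratory chain then gave 0 higher and 1 lower, and mitochondrially encoded genes 0 and 0. Of these lists, only cholesterol synthesis kept its counts.

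Genes tied to the study's questions, insulin action, amyloid and vessels, had few members past the threshold. Of 31 tested genes of brain insulin signalling none was nominally higher and 2 were lower, the kinase subunit Pik3ca (848, 1245 and 1598 against 1127, 1534 and 1724, -0.24 ± 0.10, p = 0.025) and the adaptor Irs1 (-0.42 ± 0.18, p = 0.0335). Of 31 genes of amyloid and tau metabolism 2 were nominally higher, the lipid carriers Clu (0.37 ± 0.14, p = 0.0137) and Apoe (39417, 52597 and 81606 against 31944, 43752 and 51237, 0.30 ± 0.12, p = 0.0199), and the transporter Abcg2 was lower (-0.63 ± 0.29, p = 0.0427). Clu and Apoe were also the 2 of 14 lipid transport genes. The blood-brain barrier endothelium gave 1 higher (Slc2a1) and 1 lower (Abcg2) of 24, pericytes and smooth muscle 2 of 20 higher, and nitric oxide and vascular tone 1 higher (Edn1) and 1 lower (Agt) of 21. Without 10RT43, the endothelium and the pericyte list had 0 members nominally different, vascular tone had 0 higher and 3 lower, and insulin signalling had 1 lower.

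The relatives and receptors of amylin gave no nominal difference. They were 5 tested members of the amylin and calcitonin family. Ramp3, one of the receptor activity-modifying proteins that turn a calcitonin receptor into an amylin receptor, had 102, 180 and 364 in AKO rats and 126, 201 and 247 in WT rats (-0.14 ± 0.17, p = 0.405). Adm, adrenomedullin, a vasodilator peptide, had 20.2, 36.2 and 115 against 21, 30.4 and 51.3 (0.34 ± 0.25, p = 0.194), and Calcrl, its receptor, stood at 0.12 ± 0.23 (p = 0.608). Calca and Adm2 were at 0 in some rats. The other 6 listed members, the calcitonin receptor Calcr among them, were not analysed here.

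The genes on either side of the amylin gene were read next. By gene order in the GRCr8 annotation, the 5 nearest tested genes on each side were Plekha5, Aebp2, Pde3a, Slco1c1 and Slco1a4, and Pyroxd1, Recql, Golt1b, Spx and Ldhb. Their log2 differences ran from -0.22 to 0.13, and 0 of 10 were nominally different, with a smallest p of 0.0954 for Aebp2. Of 40 tested genes, 20 on each side, 2 were nominally higher, Plbd1 at 0.80 and Irag2 at 0.49. None of the called genes with a known place in that order lay among these 40.

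Neurons showed few and mostly downward differences. Voltage-gated channels, which shape action potentials, gave none nominally higher and 5 lower of 41 tested (median -0.12), the potassium channels Kcnc1 (-0.64 ± 0.24, p = 0.0154), Kcnd2 (-0.49, p = 0.03) and Kcna2 (-0.45, p = 0.033), the calcium channel subunit Cacnb4 (-0.65, p = 0.044) and the sodium channel Scn1a (-0.61, p = 0.049). Kcnc1 had 1428, 1730 and 3675 in AKO rats and 1483, 2736 and 9263 in WT rats, the 9263 being 10RT43, and its difference without that rat was -0.45 (p = 0.0181). The count of lower channels ran from 1 to 10 with 1 rat left out. It was 1 without 6KAH98, 2 or 3 without 9 of the others, 8 without 7AKO30 and 10 without 10RT51. Over all genes, 676 were nominally lower without 6KAH98, 874 without 7AKO30 and 740 without 10RT51.

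Other neuronal lists gave few nominal members with all rats in the fit, and more lower ones in places without 10RT43. Snap25, a fusion protein of synaptic vesicles, was the single nominally lower member of 17 excitatory neuron markers (-0.30 ± 0.13, p = 0.0315), and with Vamp7 (-0.19 ± 0.07, p = 0.00958) it made 2 lower, against 1 higher, of 43 vesicle genes. Without 10RT43, where 4.7% of all genes were lower, excitatory markers gave 3 lower of 17. Neocortical layer markers, which gave 1 higher and 2 lower of 25, gave 0 higher and 5 lower without that rat. GABA neuron markers gave 2 lower of 26 (Slc32a1 among them), glutamate receptors 2 lower of 25 (Gria4 and Grm4), purinergic receptors 1 higher (P2ry6) and 1 lower (P2ry1) of 18, and monoamine and acetylcholine receptors 1 higher of 34 (Chrm5). Among immediate early genes Nptx2, a pentraxin that gathers glutamate receptors at synapses, was the 1 nominally higher of 29, at 938, 1785 and 2385 against 173, 1234 and 1468 (0.76 ± 0.29, p = 0.0168). It came to 0.47 without 10RT43, the rat at 173 (p = 0.00175). The circadian clock gave 2 lower of 22 (Dbp and Nr1d2).

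Among the symbol families with over 100 tested genes, zinc finger genes had the highest share of lower members. These mostly encode DNA-binding repressors, many of them with a KRAB domain. Of 305 tested, 30 were nominally lower and 2 higher, with a median of -0.11, against 4.12% of all genes lower, and without 10RT43 the counts were 22 and 3. The KAH-numbered rats gave 54 lower (median -0.18), where 893 of all genes were lower. The AKO-numbered rats gave 17 lower (median -0.06), where 526 of all genes were. With 1 rat left out, 22 to 52 were lower, where 542 to 882 of all genes were. No member passed the adjusted threshold. Zfp14 had 211, 266 and 333 in AKO rats against 294, 341 and 381 in WT rats, with 9 of 10 AKO rats below the WT range (-0.37 ± 0.08, p = 0.000169, adjusted p = 0.08). Zfp141 had 51, 91.9 and 151.8 against 105, 137.4 and 175 (-0.60 ± 0.15, p = 0.000596). Zdhhc2, a palmitoyltransferase and no zinc finger repressor, was nominally lower too, at 1048, 1148 and 1334 against 1208, 1478 and 1580 (-0.30 ± 0.06, p = 9.5e-05).

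S100 proteins and annexins, both calcium-binding, gave the opposite, with 8 higher and 1 lower (Anxa6) of 23. Among larger families, solute carriers gave 18 higher and 9 lower of 288, transmembrane genes 7 and 11 of 193, ubiquitin ligases and proteases 4 and 7 of 194, potassium channels 5 and 6 of 80, and kinesins, dyneins and myosins 7 and 2 of 105. Matrix metalloproteinases and Adam genes gave 5 and 1 of 54, integrins 4 and 1 of 27, and serpins 3 and 0 of 17. ATP-binding cassette transporters gave 0 and 3 of 44.

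Other cells gave small counts. Oligodendrocyte and myelin genes gave 3 higher (Enpp6, Olig2 and Olig1) and 2 lower (Qdpr and Ermn) of 26, and their precursors 2 of 10 higher (Cspg4 and Olig2), or 0 without 10RT43 and 0 to 5 with 1 rat left out. Cilia and ependymal genes gave 4 higher of 33, with Dnah12 at 1.25 ± 0.47 (p = 0.014). The cell cycle gave 1 of 22, Cdkn1a, the cell cycle inhibitor p21, at 121, 199 and 1114 against 68.2, 126 and 249 (0.88 ± 0.35, p = 0.0199), with 1114 in 4KAH27. Histones gave 1 of 10 and DNA repair and chromatin enzymes 2 lower of 34 (Ezh1 and Atr).

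Genes of neighbouring brain regions and glands were read as markers of tissue other than cortex. Hippocampal (16 tested), striatal (20), olfactory bulb (18), thalamic (14) and pineal (10) markers had 0 nominally different members, as did the 3 tested sex-linked genes. Without 10RT43, thalamic and pineal markers each gave 1 higher and 1 lower, and olfactory markers 1 lower. Striatal means varied between rats of both groups, from 8.17 to 10.04 in AKO and from 6.22 to 10.04 in WT rats. Olfactory bulb means varied too, from 6.06 to 9.63 in AKO and from 5.59 to 9.61 in WT rats. They were highest in 6AKO35 (9.63), 10RT51 (9.61) and 10RT50 (9.53). The cerebellar list gave 2 lower of 20 (Rgs8 and Grm4) with a median of -0.67, and -0.09 over 17 tested genes without 10RT43. Choroid plexus markers gave 3 higher and 1 lower of 21, with 5 higher without 10RT43, 7AKO30, 10RT50 or 10RT51 in turn, and their most abundant product Ttr reached 3445 in the AKO rat 7AKO19 while the other AKO rats had 1.12 to 35.4 and WT rats 0.817 to 29.9. Hypothalamic and pituitary genes gave 3 higher of 12 (Avp, Pomc and Prl), Avp at medians of 10.1 and 4.38 (0.88 ± 0.36, p = 0.0233). All 12 had a positive difference, with a median of 0.73, or 0.74 without 10RT43, and 8 of them were at 0 in some rat. The part of such tissue in the results was not tested.

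**Figure D5:**
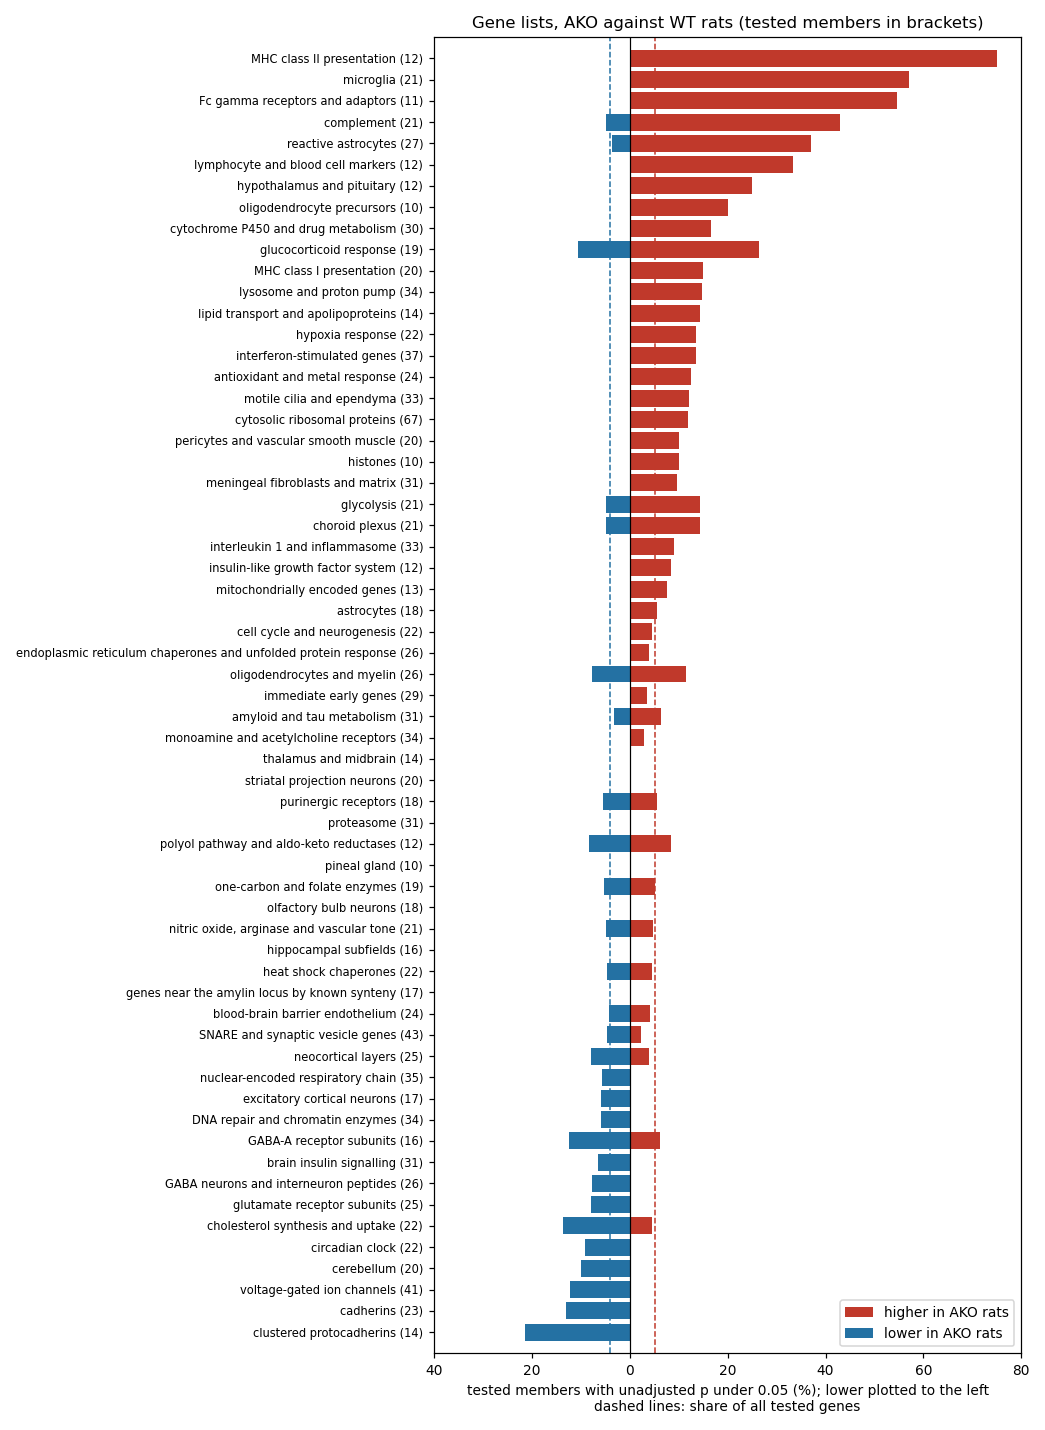
Share of the tested members of each gene list that was nominally higher (right) or lower (left) in AKO than in WT rats, for lists with at least 10 tested members, with dashed lines at 5.23% and 4.12% for all genes. MHC class II presentation has the highest share of higher members, 9 of 12.

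Of the 61 lists with at least 10 tested members, 6 had at least 1 in 3 of their members nominally higher in AKO rats, and 1, the protocadherins, had over 1 in 5 nominally lower. The 6 were class II presentation, microglia, complement, Fc gamma receptors, reactive astrocytes and blood cells, which share members such as C1qa, Ctss and C3. In 7 of the 61 no member was nominally different.

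Unnamed genes held part of the strongest differences. Of 2320 tested genes known by an Ensembl identifier alone, 1 rose and 4 fell. ENSRNOG00000063986 fell from 8.89, 19.5 and 42.3 in WT rats to 1.09, 4.43 and 9.6 (-2.02 ± 0.28, adjusted p = 0.00352). ENSRNOG00000064228 fell from 13.7, 27.1 and 52.6 to 0, 2.42 and 29.2 (-3.17 ± 0.49, adjusted p = 0.00795), with 4 AKO rats under 1 and the 29.2 in 6KAH99. HIP rats had medians of 30.5 and 26.8 (AKO against HIP -2.42 and -3.36, adjusted p = 0.000625 and 0.00239). ENSRNOG00000065100 fell from 2.58, 5.22 and 9.64 to between 0 and 3.01, with 7 AKO rats and no WT rat under 1 (-2.10 ± 0.33, adjusted p = 0.00795), but 5 HIP rats were under 1 as well and the difference of AKO from HIP rats did not pass (-1.01, adjusted p = 0.477). ENSRNOG00000066451 fell from 294, 388 and 471 to 51.4, 100 and 347 (-1.72 ± 0.28, adjusted p = 0.00795), by -2.15 in AKO-numbered and -1.07 in KAH-numbered rats.

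ENSRNOG00000064257 rose from 354, 461 and 739 to 690, 899 and 1575 (0.95 ± 0.15, adjusted p = 0.00795), and against HIP rats by 1.12 (adjusted p = 0.0018). The clone-named AC130970.1 rose from 19.2, 30.8 and 44.1 to 41.2, 67 and 94.4 (1.11 ± 0.17, adjusted p = 0.00795), while against HIP rats it stood at 0.95 (adjusted p = 0.172). Each had 9 of 10 AKO rats above the WT range. Of 547 tested clone-named genes, 48 were nominally higher and 12 lower, with a median of 0.06. Without 10RT43, Cd22 no longer passed and, besides Sult1a1, 4 genes more did, namely ENSRNOG00000062707 (-1.78, adjusted p = 0.0123), ENSRNOG00000066092 (1.45, adjusted p = 0.038), ENSRNOG00000062944 (1.51, adjusted p = 0.0469) and Dstn, an actin-severing protein (0.33, adjusted p = 0.0333). What any of these transcripts encodes is not given in the sources used here.

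The comparison of AKO with HIP rats shares all AKO rats with the one above, so its values only stand beside it. It called 29 of 17092 genes (0.17%). All 17 genes called against WT rats had the same sign against HIP rats. For Muc1 the difference from HIP rats was 1.20 (adjusted p = 0.00971), for Col6a1 0.73 (adjusted p = 0.00969), for Ftcd 1.45 (adjusted p = 0.0532) and for Cd22 1.88 (adjusted p = 0.102).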

How the data were processed

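RNA from the cortex of 10 AKO, 10 WT and 10 HIP rats was sequenced by the authors from total RNA (RNeasy kit, SMARTER mRNA-Seq kit, an Illumina HiSeq). Per the labels and the submitters' processing notes, reads were handled in Partek Flow 10.0.22.0228 with Bowtie2 and STAR 2.7.8a against rn7 with Ensembl105 genes. The deposited table holds read counts per gene that the authors divided by DESeq2 size factors, a signal scale without raw counts, so low genes are known in steps of about 1 scaled read. Between 80.6% and 83.8% of a rat's values below 100 were whole multiples of its step (tolerance 0.02 of a step). No count test was therefore run, and why other values were not whole was not tested.

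Groups were taken from the genotype labels, and nothing says more of the replicates than that each is 1 rat. Genes averaging 1 or more over the 20 rats were tested on log2(value + 1) with limma 3.58.1 (R 4.3.3, moderated by a mean-variance trend, two-sided, Benjamini-Hochberg adjustment), so that fold changes of low genes are understated. The fit was repeated without the library with Gabra6 or Tph1 above 100 (10RT43), with other pseudocounts, filters, weights, normalizations and covariates, and without each rat in turn. On simulated data with 200 genes changed 2-fold among 17045, 161 were called, and 10 unchanged genes were called.

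Members, the 64 gene lists and 50 symbol families were chosen with earlier results of these data known. Genes named were those called in both fits (10 at most in each direction), the 5 with the smallest p in each direction, the best members of each list, the neighbours of amylin, and 2 unnamed genes in each direction. Other names were added after their values were seen. Of 17058 tested genes, 13804 matched RefSeq (GRCr8) by symbol and 325 by synonym. That annotation gave gene order and promoters only, since the files use rn7. Some genes are not reported here.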

Additional observations from a re-analysis of the deposited data

Results flagged for a closer look

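Within each group of 10 rats, a value was set aside for a closer look where its gap to the nearest rat was too large a part of the group's range for Dixon's test at 95%. Of 198 groups of values examined, 37 passed, where chance gives about 9.9. The values overlap, since list means hold the listed genes, and their causes were not tested.

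Most AKO values far from the others belonged to 4KAH27. It had the highest normalized counts of Lcn2 (281, others 13.6 to 45.8), Timp1 (885, others 42 to 129), Mt1 (883, others 73.4 to 151.2), Cdkn1a (1114, others 121 to 363), Fcgr2b (488, others 78.9 to 195) and Fcgr2a (1213, others 311 to 596). It had the lowest of RT1-Ba (8.23, others 79.0 to 539), Cx3cr1 (340, others 646 to 1307), Nptx2 (938, others 1525 to 2385) and Akr1c19 (11, others 36.8 to 111). Its mean log2 levels of reactive astrocyte genes (8.30, others 6.45 to 7.30) and of glucocorticoid response genes (10.3, others 8.68 to 9.08) were the highest of the AKO rats.

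Other AKO rats each gave 1 or 2 such values. Akr1b10 was highest in 6KAH99 (145.2, others 50.1 to 84.3), and 6KAH98 had the lowest Nr3c1 (736, others 1129 to 1563) and the highest mean of ribosomal protein genes (10.9, others 10.0 to 10.5). Kcnc1 was highest in 7AKO30 (3675, others 1428 to 2229). 7AKO19 was highest in Ttr (3445, others 1.12 to 35.4) and in the mean of choroid plexus genes (6.79, others 4.05 to 5.28).

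Among WT rats all but 1 of the values were those of 10RT43. It was highest in Kcnc1 (9263, others 1483 to 3766) and in the cerebellar mean (12.3, others 5.65 to 6.11). It was lowest in Ftcd (0, others 2.46 to 11.7), RT1-DMa (195, others 262 to 363), ENSRNOG00000062707 (7.18, others 40.2 to 113), ENSRNOG00000062944 (2.39, others 11.4 to 36.9), Nptx2 (173, others 995 to 1468) and Fcho1 (496, others 713 to 928). The microglial genes Ctss (1767, others 2587 to 3532), C1qc (275, others 420 to 661), Csf1r (746, others 1285 to 1657), Tmem119 (164, others 310 to 512) and Cx3cr1 (376, others 753 to 1019) were lowest there too, as was Clu (7521, others 12310 to 17998). So were its means of microglia (7.40, others 7.90 to 8.42), Fc gamma receptor (6.36, others 7.00 to 7.38), striatal (6.22, others 8.12 to 10.04) and excitatory neuron genes (9.01, others 11.1 to 11.7). The remaining WT value was Ramp3 in 10RT50 (126, others 184 to 247).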

How the results depend on the processing

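The count of genes higher in AKO rats, 9 as reported, became 5 with a pseudocount of 0.1, 15 with all 30 rats in 1 fit, 492 with sample-quality weights, 19 with the library number as a covariate, 44 without the KAH-numbered rats, 0 without the AKO-numbered rats, 1 with the microglia mean as a covariate, and 4 to 28 with 1 rat left out. The count of genes lower, 8 as reported, became 365 with weights, 24 without the KAH-numbered rats, 0 without the AKO-numbered rats, 2 with the microglia mean, and 6 to 15 with 1 rat left out. The weights were lowest for 10RT43 (0.092), 6KAH98 (0.180) and 4KAH27 (0.244). The smaller counts without 6 of the AKO rats rest on 4 rats in that group, and the cause of the other shifts was not tested. The microglia mean and the estimated reads were added as covariates after seeing the data. No paired analysis was possible because the labels give no replicate numbers.

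The 17 called genes kept their sign in every setting where they were tested, 35 for each but ENSRNOG00000065100 (34). Reversed signs, as log2 differences, were without the AKO-numbered rats ENSRNOG00000064950 (0.43), C3 (-0.32), RT1-Ba (-0.38), Akr1b1 (0.050), Golt1b (0.016), Spx (0.26) and Calcrl (-0.055). With the microglia mean they were Csf1r (-0.034), C1ql3 (-0.16), Lhfpl2 (-0.12), Cx3cr1 (-0.24), Calcrl (-0.22), Pde3a (-0.12), Plekha5 (-0.021), Golt1b (0.013) and Recql (0.025). Spx was 0.037 with the library number. Recql was 0.015 without 10RT43, 0.044 with weights, 0.017 with quantile normalization and 0.070 without the KAH-numbered rats. With 1 rat left out, Slco1a4 ran from -0.31 to 0.059, Slco1c1 from -0.17 to 0.11, Plekha5 from -0.011 to 0.091, Spx from -0.25 to 0.081 and Recql from -0.032 to 0.027. Genes with fewer than about 10 normalized counts, such as Muc1, Cd22, Ftcd and ENSRNOG00000065100 in WT rats, rest on few reads per rat.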
